A study of Mus musculus with 10 samples.

Results

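The genes described here encode the proteins of the cytosolic ribosome. They were found by name after the Ensembl identifiers of the count table had been matched to gene symbols. Kept were the symbols that start with Rpl or Rps followed by a number and at most 1 of the suffix letters a, l and x, together with Rpsa, Rplp0, Rplp1 and Rplp2, where a gene had at least 100 raw counts summed over the 10 libraries. Of 83 symbols with such a name, 79 passed. They were 32 genes of the small subunit and 47 of the large subunit, out of 56884 identifiers in the table, and all 79 were among the 17622 genes that entered the test. The 4 that did not pass were Rpl10l with 0 counts in all libraries together, Rpl39l with 26, Rpl24 with 55 and Rpl3l with 75. Of the 79, 76 were annotated as protein coding and 3 (Rpl32l, Rpl6l and Rps4l) as processed pseudogenes.

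RNA was sequenced from the hippocampus of 10 female P301S (PS19) mice, 1 library per mouse. All carried human 1N4R Tau with the P301S mutation, driven by the mouse prion protein (Prnp) promoter, on a mixed B6;C3 background, and all kept their ovaries. From 6 months of age, 5 mice carried a SILASTIC implant packed with 10 mm of dihydrotestosterone (DHT), an androgen that aromatase cannot turn into estrogen, and 5 carried a void implant, for 12 weeks, and tissue was taken at 9 to 9.5 months. The question was which genes differed in the hippocampus between the DHT and Void mice. The mice are called by the replicate numbers of their labels, which are 4, 5, 9, 10 and 11 for Void and 1, 2, 3, 5 and 6 for DHT. In the S numbers of the labels all Void libraries came before all DHT libraries. What these numbers stand for is not stated, and it cannot be told apart from treatment.

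A ribosome is built from a small subunit, which reads the mRNA, and a large subunit, which joins amino acids, and each holds many proteins in a single copy around the ribosomal RNA. Most of the mRNAs for these proteins start with a C followed by a run of pyrimidines, the terminal oligopyrimidine (TOP) motif, through which mTORC1 and the RNA-binding protein LARP1 set how well they are translated. Mammalian genomes also hold many processed copies of these genes, so that short reads can be hard to place. In neurons, ribosomes and ribosomal protein mRNAs are also found in dendrites and axons.

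The letters around the annotated transcription start are given for 10 of these genes, since the start is where the TOP motif lies. Each line is 30 bases, 5′ to 3′ on the strand of the gene, from the RefSeq promoter table for GRCm38.p6. The start is the base that follows the first 15, and capitals mark a run of at least 8 C or T that begins with C within 15 bases of it. The first 6 genes had such a run at the annotated start, the next 3 had none there, and Rps27l, with more than 1 annotated start, is given at both. Whether transcription began at the annotated start in these mice was not tested, so a missing run holds for that start only.
Rps6, chr4:86857353-86857382, minus strand: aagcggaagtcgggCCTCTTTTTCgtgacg
Rpl28, chr7:4792950-4792979, plus strand: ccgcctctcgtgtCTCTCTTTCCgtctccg
Rps27, chr3:90213634-90213663, minus strand: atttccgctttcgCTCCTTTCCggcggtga
Rplp2, chr7:141447636-141447665, plus strand: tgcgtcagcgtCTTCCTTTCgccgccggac
Rps18, chr17:33955651-33955680, minus strand: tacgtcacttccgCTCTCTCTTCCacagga
Rps9, chr7:3704026-3704055, plus strand: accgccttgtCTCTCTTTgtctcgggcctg
Rpl41, chr10:128549154-128549183, minus strand: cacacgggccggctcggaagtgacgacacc
Rplp0, chr5:115559452-115559481, plus strand: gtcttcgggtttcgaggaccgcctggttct
Rps16, chr7:28350674-28350703, plus strand: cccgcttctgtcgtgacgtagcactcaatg
Rps27l, chr9:66946071-66946100, plus strand: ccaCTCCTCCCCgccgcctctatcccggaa
Rps27l, chr9:66946398-66946427, plus strand: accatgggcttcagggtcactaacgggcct
In the window of Rps6 the run covered the annotated start, while in the upstream window of Rps27l it began 12 bases before it and ended before reaching it.

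Most ribosomal protein genes of both subunits had a slightly higher mean level in DHT than in Void mice, but 1 of 79 passed the test, a smaller share than among all genes. The log2 fold change (DHT over Void) was positive for 76 of 79 genes, or 96.2%, against 52.4% of all genes tested. Its median was 0.13, against 0.0094 over all genes tested, and it ranged from -0.09 to 0.48. In the small subunit 30 of 32 genes were positive, with a median of 0.13, and in the large subunit 46 of 47, also with a median of 0.13. Only Rps27l rose past the test (edgeR's quasi-likelihood test, Benjamini-Hochberg adjusted p under 0.05 over all 17622 genes), and no gene fell. The background for such a call was 5.22% of all genes higher and 0.261% lower. At an unadjusted p under 0.05, 28 genes were higher and 0 lower, beside 13.1% and 4.22% of all genes. That count of 28 was 5 without DHT mouse 5 and 8 without DHT mouse 1 or Void mouse 11. It was 9 without Void mouse 4, 14 without Void mouse 10, 20 without DHT mouse 2 and 25 without DHT mouse 6. Without Void mouse 5 or DHT mouse 3 it was 29, and without Void mouse 9 it was 30. Adjusted calls over all genes also varied in these fits, from 351 to 1072 higher. The share of all genes at an unadjusted p under 0.05 was not counted in these fits, nor in the other fits given next. The count of 28 was 12 with DESeq2 or with its size factors in edgeR, and 11 with the level of choroid plexus markers as a covariate. It was 2 once the trend of counts on transcript length was removed, where 0 genes passed. In that fit 42 of 79 fold changes were positive, and their median was 0.0029, beside -0.0727 over all genes tested. None passed the added limit of a log2 fold change beyond 1, which 2.17% of all genes passed upward and 0.0227% downward. In bulk tissue, more cells of a type that holds many ribosomes and more mRNA in each cell cannot be told apart.

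**Figure D1:**
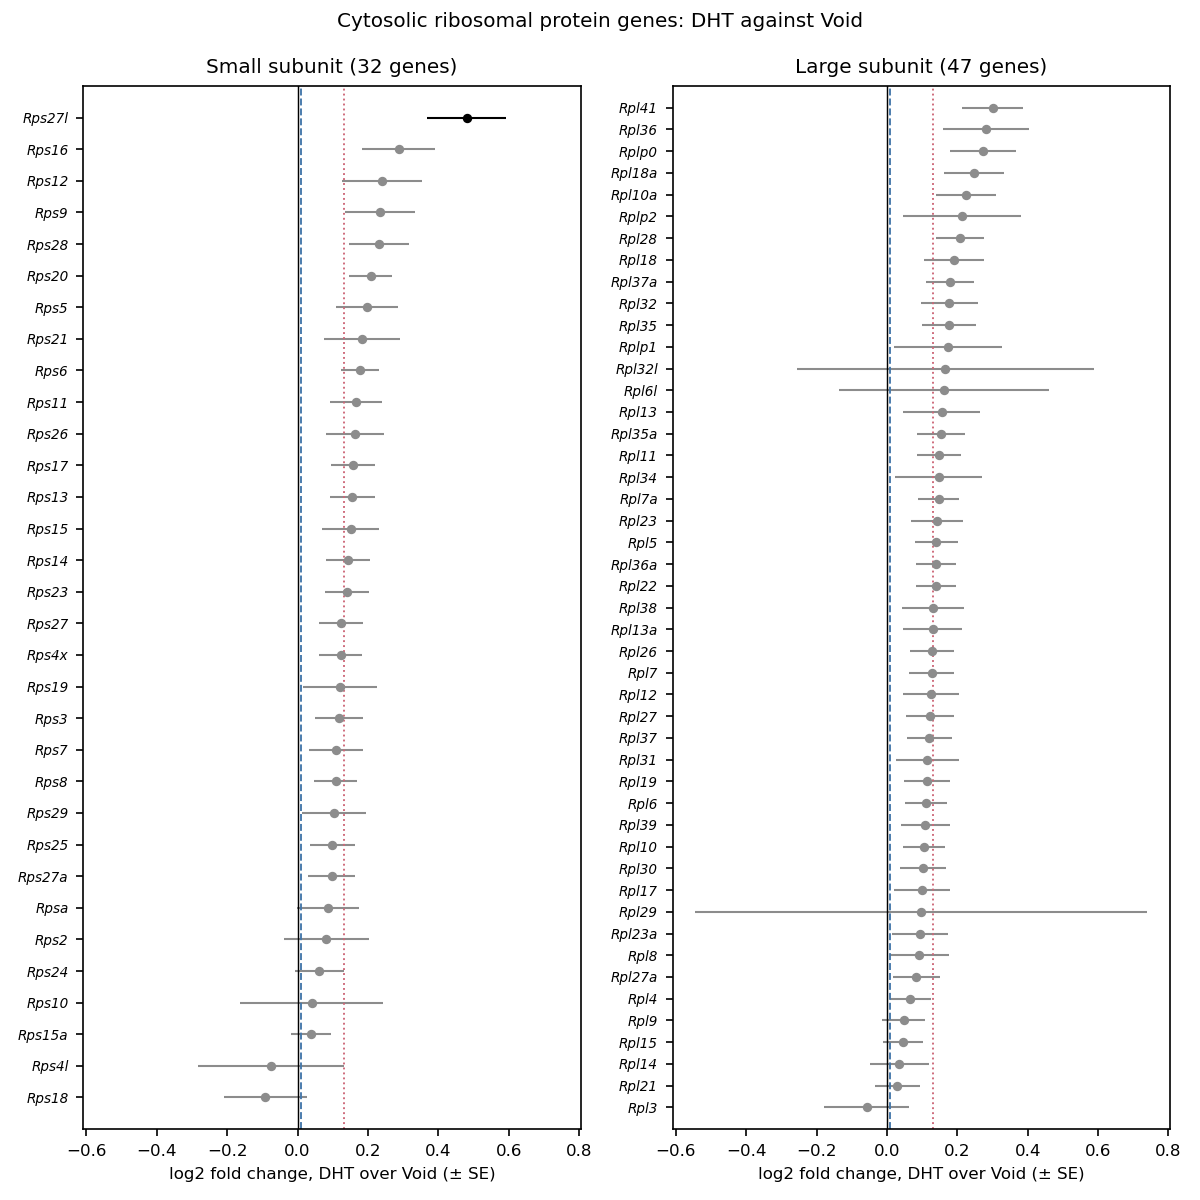
Log2 fold change (DHT over Void, x axis) with its standard error for each ribosomal protein gene, small subunit on the left and large subunit on the right, 5 mice per group. The dashed line is the median of all genes tested (0.0094), the dotted line the median of the panel's genes (0.13), and the black point is Rps27l, the gene with an adjusted p under 0.05.

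These genes were measured with smaller errors than most. The median standard error of the log2 fold change was 0.0773, against 0.115 over all genes tested, and 61 of 79 genes had one under 0.1. The group values overlapped in 78 of 79 genes, and the exception was Rps6, higher in every DHT mouse than in any Void mouse. Such separation was found in 5.39% of all genes upward and 0.88% downward. In 15 further genes, 4 DHT mice lay above the highest Void mouse, among them Rpl11, Rpl19, Rpl28, Rpl32, Rpl41, Rps14, Rps20 and Rps27l. The share of all genes with 4 DHT mice above was not counted, so that number has no background to be read against.

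The ribosomal protein genes took 0.684%, 0.778%, 0.753%, 0.717% and 0.739% of all counts in Void mice 4, 5, 9, 10 and 11. In DHT mice 1, 2, 3, 5 and 6 they took 0.820%, 0.791%, 0.761%, 0.871% and 0.780%. The means were 0.734% ± 0.0357 (SD, n = 5) and 0.805% ± 0.0428 (SD, n = 5), a difference of 0.0706 percentage points. By this share only DHT mouse 3 lay within the Void range. As a share of coding counts without mitochondrial genes, DHT mice 3 and 6 (0.791% and 0.806%) both lay under Void mouse 5 (0.813%). Placed against each gene's Void mean, the median log2 level over the 79 genes was -0.11, 0.05, 0.07, -0.03 and 0.01 in the Void mice and 0.16, 0.12, -0.0034, 0.27 and 0.14 in the DHT mice. DHT mouse 5 held the highest value of 43 of the 79 genes, and DHT mouse 1 of 18. The lowest value was in Void mouse 4 for 44 genes and in Void mouse 10 for 22. The mouse with the lowest median level in each group was also the one with the deepest library, at 47113661 counts in Void mouse 4 and 45947784 in DHT mouse 3, and a part of depth in the result was not tested. Without DHT mouse 5 the median log2 fold change was 0.0705 and without DHT mouse 1 it was 0.0826.

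**Figure D2:**
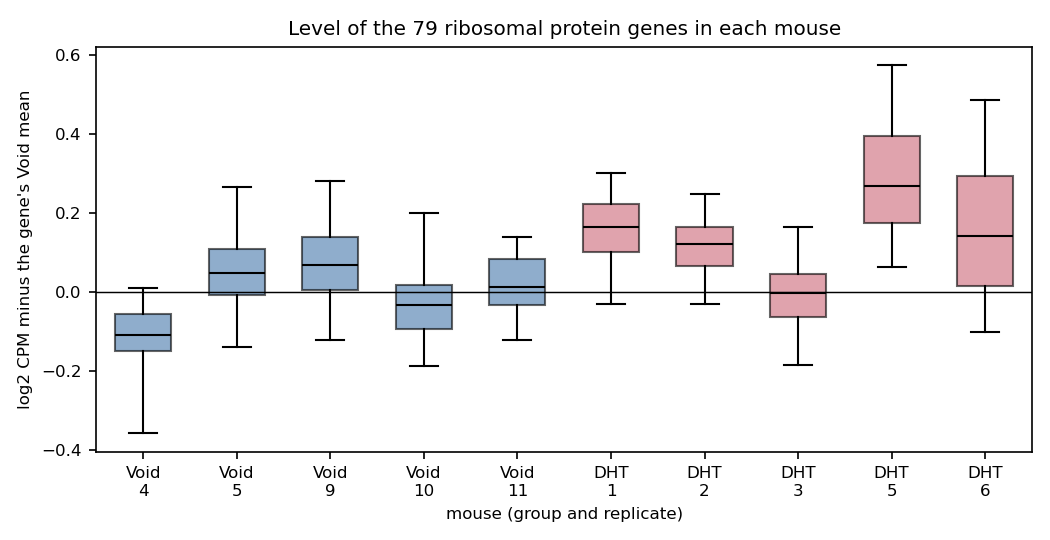
Log2 CPM minus the gene's Void mean (y axis) for the 79 ribosomal protein genes in each of the 10 mice (x axis), with boxes from the lower to the upper quartile, the median as a line and whiskers at the 5th and 95th percentiles. The DHT medians lie at 0.12 or above except for DHT mouse 3 at -0.0034, and the Void medians lie between -0.11 and 0.07.

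Rps27l, a small-subunit paralog of Rps27 that is known as a target of p53, had the largest fold change and the lowest p. Normalized levels (CPM, the counts of a gene scaled to a common library size) were 6.79, 6.14, 8.41, 5.98 and 6.08 in Void mice 4, 5, 9, 10 and 11 and 9.89, 9.13, 9.43, 10.03 and 8.13 in DHT mice 1, 2, 3, 5 and 6. Void mouse 9 stood above its group, and DHT mouse 6 was just below it. The means were 6.68 ± 1.02 and 9.32 ± 0.757 CPM (SD, n = 5 each), with a log2 fold change of 0.48 (SE 0.11, adjusted p = 0.0284). The call was lost in most fits that left out a mouse, while the fold change stayed positive. Over the 10 fits that each dropped a mouse, the log2 fold change ranged from 0.42 to 0.58 and the adjusted p from 0.00582 to 0.105. The adjusted p was under 0.05 in 3 of them, the fits without Void mouse 9, DHT mouse 2 or DHT mouse 6. The parent gene Rps27 was at 58.2, 69.5, 64.6, 63.7 and 62.7 CPM in the Void mice and 72.1, 68.9, 66.1, 74.9 and 65.2 CPM in the DHT mice, with overlapping groups and a log2 fold change of 0.12 (SE 0.06, adjusted p = 0.34). Per kilobase of transcript, Rps27 stood at 193.0 CPM and Rps27l at 16.03 CPM.

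A list of 16 genes of ribosome stress and quality control, which holds genes of the p53 response, was set beside Rps27l. In that list 1 gene rose and none fell, beside 5.22% and 0.261% of all genes, and 9 of 16 were positive, with a median log2 fold change of 0.01. The gene that rose was Cdkn1a, the cell-cycle inhibitor p21, at 7.84, 7.22, 6.76, 7.90 and 5.99 CPM in the Void mice and 15.7, 10.5, 11.4, 15.1 and 11.3 CPM in the DHT mice. Its groups did not overlap, and its log2 fold change was 0.84 (SE 0.13, adjusted p = 0.00761). Mdm2, the ubiquitin ligase that holds p53 down, had a log2 fold change of 0.19 (SE 0.07, adjusted p = 0.178), and Trp53 itself 0.17 (SE 0.07, adjusted p = 0.251). Both were named after their values were seen and do not stand for the list. At an unadjusted p under 0.05 the list had 3 genes higher and 0 lower, beside 13.1% and 4.22% of all genes. Rpl5 and Rpl11, the large-subunit proteins that bind MDM2 when ribosome assembly is disturbed, had log2 fold changes of 0.14 (SE 0.06, adjusted p = 0.259) and 0.15 (SE 0.06, adjusted p = 0.236).

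The genes that followed Rps27l in order of p did not pass the test. Rps6, the substrate of S6 kinase whose phosphorylation is the usual readout of mTORC1, was at 80.3, 88.3, 88.1, 81.7 and 88.9 CPM in the Void mice and 103.1, 96.8, 91.3, 98.3 and 94.0 CPM in the DHT mice. Its lowest DHT value lay above its highest Void value, and its log2 fold change was 0.18 (SE 0.05, adjusted p = 0.0831). Rpl41, which encodes the shortest protein of the ribosome, was at 71.6, 84.3, 84.7, 71.6 and 87.8 CPM in the Void mice and 95.8, 102.3, 83.2, 109.9 and 101.5 CPM in the DHT mice. DHT mouse 3 fell among the Void mice and the other DHT mice stood above all of them. The log2 fold change of Rpl41 was 0.30 (SE 0.09, adjusted p = 0.0668). Rps20, in the head of the small subunit, was at 68.7, 72.9, 73.6, 66.8 and 66.5 CPM in the Void mice and 81.4, 81.3, 71.3, 86.7 and 81.5 CPM in the DHT mice, again with DHT mouse 3 inside the Void range. Its log2 fold change was 0.21 (SE 0.06, adjusted p = 0.0773). Without DHT mouse 3, Rpl41 had an adjusted p of 0.0456 and Rps20 of 0.0485, while Rps27l no longer passed.

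Rpl28, a large-subunit protein, was at 91.9, 96.7, 92.1, 90.03 and 102.5 CPM in the Void mice and 114.9, 105.9, 96.3, 108.3 and 121.3 CPM in the DHT mice. All DHT mice except mouse 3 stood above the Void mice, and the log2 fold change was 0.21 (SE 0.07, adjusted p = 0.106). Rps16 and Rpl36 had log2 fold changes of 0.29 (SE 0.10, adjusted p = 0.157) and 0.28 (SE 0.12, adjusted p = 0.257), among the largest after Rps27l and Rpl41. In both, DHT mice 5 and 6 were highest and DHT mouse 3 was lowest of its group, at 62.0 CPM for Rps16 and 36.6 CPM for Rpl36.

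**Figure D3:**
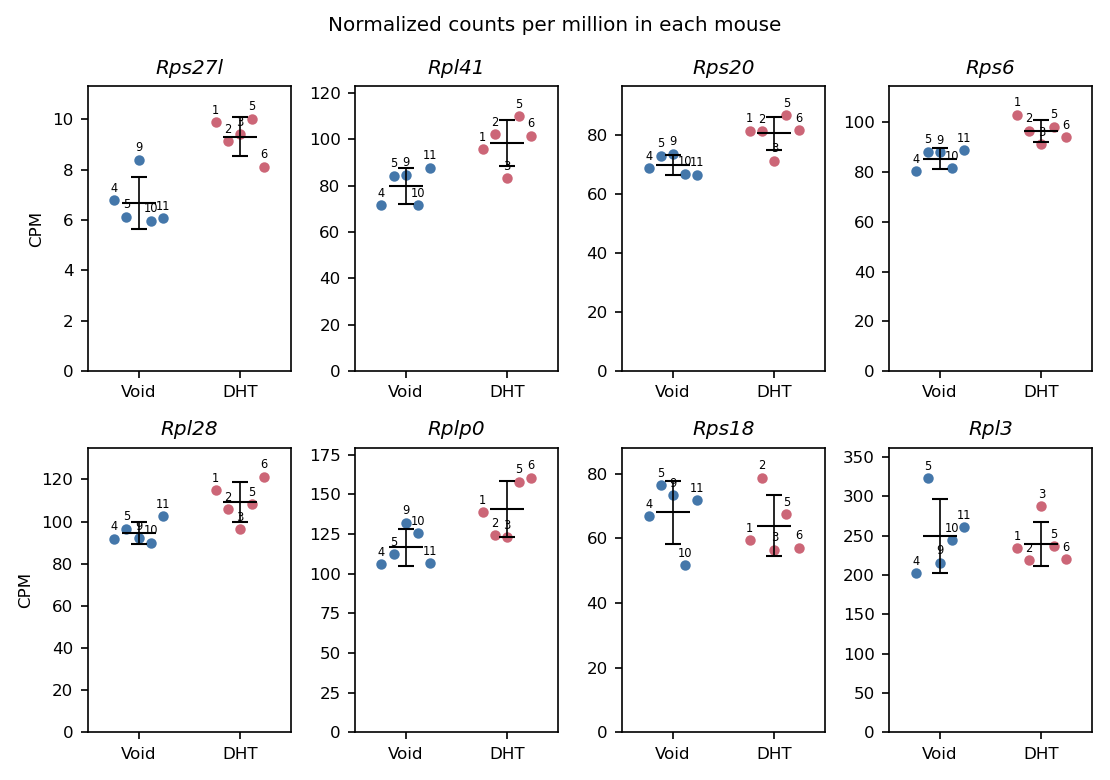
CPM (y axis, from 0) of 8 ribosomal protein genes in each Void and DHT mouse, labelled by replicate number, with the group mean and SD in black. Rps6 is the gene whose groups do not overlap, DHT mouse 3 lies lowest of its group in Rpl41, Rps20, Rps6 and Rpl28, and Rps18 and Rpl3 have lower DHT than Void means.

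The stalk of the large subunit, which recruits elongation factors, is made of Rplp0, Rplp1 and Rplp2. Rplp0 was at 105.9, 112.1, 132.1, 125.6 and 106.8 CPM in the Void mice and 138.6, 124.1, 122.9, 157.9 and 160.4 CPM in the DHT mice. Its log2 fold change was 0.27 (SE 0.09, adjusted p = 0.131), and DHT mice 1, 5 and 6 stood above the Void range. Rplp1 ranged from 102.0 to 155.9 CPM in Void and from 110.2 to 178.2 CPM in DHT mice, with a log2 fold change of 0.17 (SE 0.15, adjusted p = 0.645). Rplp2 ranged from 41.9 to 69.6 CPM in Void and from 51.5 to 79.8 CPM in DHT mice, with a log2 fold change of 0.21 (SE 0.17, adjusted p = 0.599). In all 3 stalk genes the highest Void values were those of mice 9 and 10 and the highest DHT values those of mice 5 and 6. Fau and Rack1, a ubiquitin-like fusion that yields a small-subunit protein and a scaffold protein of the small subunit, had the same 4 mice highest in their groups.

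Only 3 genes had a negative log2 fold change, and none of the 3 was near the limit. Rps18 was at 66.9, 76.4, 73.3, 51.7 and 71.7 CPM in the Void mice and 59.4, 78.7, 56.5, 67.5 and 57.1 CPM in the DHT mice, with a log2 fold change of -0.09 (SE 0.12, adjusted p = 0.777). Rps4l, the transcribed pseudogene copy of Rps4x, had -0.08 (SE 0.21, adjusted p = 0.911). Rpl3, which lies near the peptidyl transferase centre, was at 202.2, 323.3, 216.0, 244.8 and 260.9 CPM in the Void mice and 234.2, 219.4, 287.9, 237.0 and 220.4 CPM in the DHT mice, with -0.06 (SE 0.12, adjusted p = 0.885). Void mouse 5 and DHT mouse 3 were the highest of their groups for Rpl3. The smallest positive value was that of Rpl21, at 0.03 (SE 0.06, adjusted p = 0.887).

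Rpl29, a late-joining protein of the large subunit, differed far more between mice of 1 group than between the groups. It was at 7.29, 59.4, 8.50, 33.7 and 33.5 CPM in the Void mice and 8.197, 7.60, 54.6, 41.3 and 40.0 CPM in the DHT mice. Mice of both groups lay under 9 CPM, between 33 and 42 CPM, and above 54 CPM, where Void mouse 5 and DHT mouse 3 stood. The highest value was 8.15 times the lowest in Void and 7.19 times in DHT mice, and the log2 fold change was 0.10 with an SE of 0.64. The median of this ratio over the 79 genes was 1.20 in Void and 1.25 in DHT mice.

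The same mice stood apart in copies of other ribosomal protein genes. Rpl3-ps1, annotated as a pseudogene of Rpl3, was at 18.5, 1.118, 25.2, 12.2 and 12.0 CPM in the Void mice and 20.4, 19.8, 1.09, 28.1 and 28.4 CPM in the DHT mice. It was lowest in Void mouse 5 and DHT mouse 3, the mice with the highest Rpl3 and Rpl29. Rps26-ps1 was at 3.57, 0.192, 3.13, 3.25 and 4.55 CPM in the Void mice and 4.56, 4.32, 0.126, 4.67 and 0.238 CPM in the DHT mice, near 0 in these mice and in DHT mouse 6. The parent Rps26 was highest in Void mouse 5, at 71.6 CPM, and in DHT mouse 6, at 72.4 CPM, with a log2 fold change of 0.16 (SE 0.08, adjusted p = 0.35). Rps2-ps10, too low in most mice to be tested, reached 16.6 CPM in DHT mouse 3 and at most 0.33 CPM in any other mouse, and Rps2 was lowest in that mouse, at 99.0 CPM. Rps3a1, the gene of the small-subunit protein eS1, was at 53.8, 128.3, 103.3, 103.2 and 117.1 CPM in the Void mice and 61.3, 58.1, 120.9, 56.4 and 103.6 CPM in the DHT mice, with a log2 fold change of -0.33 (SE 0.26, adjusted p = 0.593). Reads of a gene and of its near-identical copies can be exchanged in counting, and these values are uncertain to that extent. The cause of the differences between these mice was not tested.

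**Figure D4:**
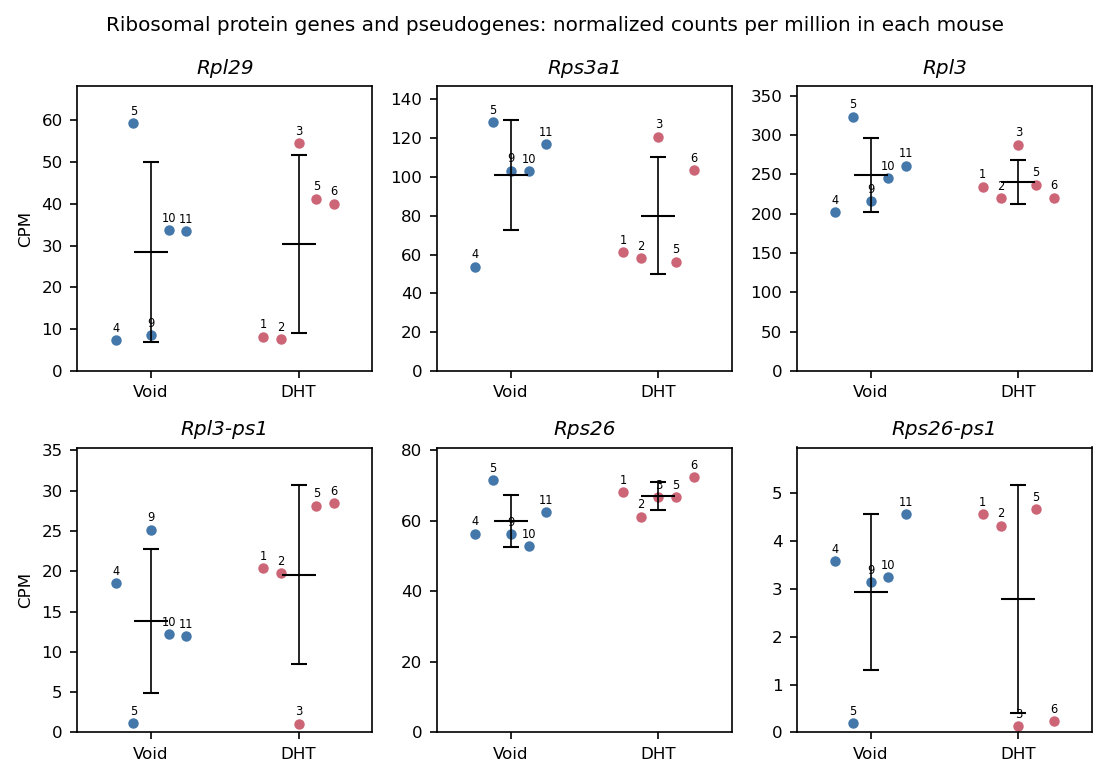
CPM (y axis, from 0) of Rpl29, Rps3a1, Rpl3, Rps26 and the pseudogenes Rpl3-ps1 and Rps26-ps1 in each mouse, labelled by replicate number, with the group mean and SD in black. Void mouse 5 and DHT mouse 3 are highest for Rpl29 and Rpl3 and lowest, or nearly so, for Rpl3-ps1 and Rps26-ps1, in both groups.

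Levels can be compared between genes only per length of transcript. By mean CPM per kilobase, Rps15 was highest at 297.7, followed by Rplp1 at 268.3, Rpl9 at 254.9 and Rpl4 at 246.3. Rps15, which lies at the head of the small subunit, had a log2 fold change of 0.15 (SE 0.08, adjusted p = 0.394), Rpl9 0.05 (SE 0.06, adjusted p = 0.777) and Rpl4 0.07 (SE 0.06, adjusted p = 0.639). Lowest were the pseudogenes Rpl6l at 0.505 and Rpl32l at 0.828 and the coding genes Rps10 at 1.34 and Rpl13a at 9.24. Rps10 and Rpl13a, like Rpl24 with its 55 counts in all libraries, encode core proteins of which each ribosome holds a single copy. How reads that fit several places in the genome were handled is not given in the sources used here, and its part in these low values was not tested.

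Among the paralogs, the testis and muscle forms were low or not detected. These forms, Rpl10l, Rpl39l and Rpl3l, had 0, 26 and 75 counts over all libraries, beside 47206 for Rpl10, 14397 for Rpl39 and 88516 for Rpl3. The log2 fold change was 0.11 (SE 0.06, adjusted p = 0.423) for Rpl10 and 0.11 (SE 0.07, adjusted p = 0.48) for Rpl39. Rpl22, which also binds RNA outside the ribosome, had 0.14 (SE 0.06, adjusted p = 0.212), and its paralog Rpl22l1 had -0.0058 (SE 0.11, adjusted p = 0.99). Rps4x had 0.12 (SE 0.06, adjusted p = 0.346), Rpl36a 0.14 (SE 0.06, adjusted p = 0.21) and Rpl7 0.13 (SE 0.06, adjusted p = 0.353). The paralogs Rpl36al and Rpl7l1 had 0.27 (SE 0.31, adjusted p = 0.745) and 0.06 (SE 0.06, adjusted p = 0.699), with Rpl36al at 0.391 CPM per kilobase beside 111.4 for Rpl36a. Rps27a, made as a fusion with ubiquitin, had 0.10 (SE 0.07, adjusted p = 0.527). Rpsa, which is also the laminin receptor, had 0.09 (SE 0.09, adjusted p = 0.704). None of these differences passed the test.

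These are short transcripts, and short transcripts of all kinds tended to be higher in DHT mice. The median transcript length was 751 bases for the ribosomal protein genes and 2724 bases for all genes tested. Over all genes the median log2 fold change went from 0.07 in the 898 genes of up to 750 bases to 0.06, 0.02, -0.01 and -0.04 in the bins above 750, 1500, 3000 and 6000 bases. The 38 ribosomal protein genes of up to 750 bases had a median of 0.15, the 33 from 750 to 1500 bases of 0.12, and the 6 from 1500 to 3000 bases of 0.10. Within each of these bins they lay above the bin's median. When the trend of counts on length was removed within each library, the median over all genes was -0.0727, beside 0.0029 for the ribosomal protein genes.

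**Figure D5:**
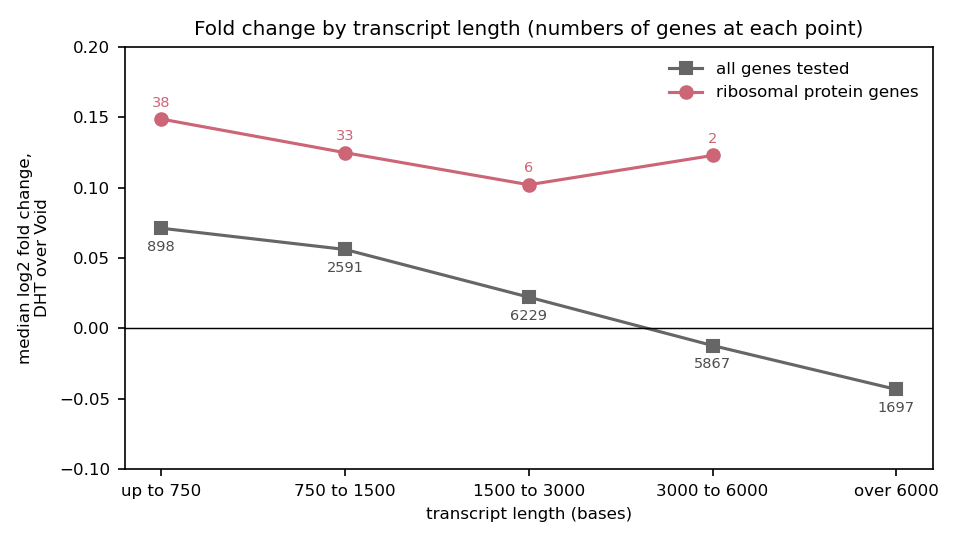
Median log2 fold change, DHT over Void (y axis), by transcript length in bases (x axis), for all genes tested and for the ribosomal protein genes, with the number of genes at each point. Both lines are highest for transcripts of up to 750 bases (0.07 and 0.15), and the ribosomal protein genes lie above all genes in the 4 bins that hold any.

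Promoters were searched in the RefSeq table, which gives 250 bases before to 50 after each start and held 68 promoters for 57 of the 79 genes. The run of at least 8 pyrimidines, shown in capitals above, was in 29 of the 68, or 42.65%, against 11.19% of all 32851 promoters and 10.67% of those of mitochondrial ribosomal protein genes. The letters CCGGAAG, the core that ETS factors such as GABPA bind, searched on both strands, were in 36.76% against 8.858% of all and 34.67% of mitochondrial ribosomal protein promoters. AAGATGGC, the core of the YY1 motif, searched on both strands, was in 10.29% against 2.749% and 16%. TATAAA between 45 and 15 bases before the start was in 0 of the 68, against 2.25% of all promoters. Genes with and without the pyrimidine run had the same median in the DHT comparison, a log2 fold change of 0.14 over the 28 with it and over the 29 without it. Among the first 6 genes shown above, all with a run, log2 fold changes went from -0.09 for Rps18 to 0.23 for Rps9. Among the next 3, without one, they went from 0.27 for Rplp0 to 0.30 for Rpl41. Rps18, Rpl41, Rplp0 and Rps16 were named for their p or fold change, so these ranges say nothing about the run.

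The rest of the translation machinery was read from lists of genes. Of 78 mitochondrial ribosomal protein genes 0 rose and 0 fell in edgeR's test (2 and 1 at an unadjusted p under 0.05), with a median log2 fold change of 0.02 and 47 positive. Of 18 elongation factors and other TOP genes 0 passed (2 higher and 0 lower unadjusted), with a median of 0.06. Tpt1, a TOP mRNA known for its abundance, had 0.19 (SE 0.06, adjusted p = 0.0796) with groups that did not overlap, and Eef1a1, the factor that brings aminoacyl-tRNA, had 0.13 (SE 0.06, adjusted p = 0.298). None of 28 initiation factors passed (1 higher and 0 lower unadjusted, median 0.03), and none of 47 ribosome biogenesis genes (2 and 1 unadjusted, median 0.0068). The same held for 20 genes of mTORC1, LARP1 and MYC control (1 and 1 unadjusted, median -0.02) and for 7 promoter factors (0 and 0 unadjusted, median -0.0055). Myc, which drives ribosome production in growing cells, was at 0.49 (SE 0.15, adjusted p = 0.0919). Of 10 small nucleolar RNA host genes, many of which are TOP genes too, 0 passed (2 higher and 0 lower unadjusted), with a median of 0.13. The list of 6 ribosomal proteins that the name rule does not take had a median of 0.11 with 0 passing and 0 unadjusted, led among those with the lowest p by Fau at 0.28 (SE 0.13, adjusted p = 0.306). Of 300 ribosomal protein pseudogenes in the table, 110 had no count in any library and 19 were tested, with 0 passing (0 higher and 1 lower unadjusted). In these lists DESeq2 called 1 gene of mTORC1, LARP1 and MYC control (Myc) and 1 mitochondrial ribosomal protein gene (Mrpl14) higher, and limma-voom called neither.

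Markers of other cells moved with the treatment. All 12 choroid plexus markers had positive log2 fold changes and 4 passed (5 with DESeq2 and 11 with limma-voom), and their summed level was 118 to 1897 CPM in Void mice, with mouse 9 highest, and 2154 to 3045 CPM in DHT mice. Of 12 microglial markers 10 rose, with summed levels of 477 to 581 CPM in Void and 712 to 1123 CPM in DHT mice, and of 8 astrocyte markers 1 rose in edgeR and in limma-voom (Gfap, 1.18 on the log2 scale, adjusted p = 0.00761) and 2 in DESeq2 (Gfap and Sox9). The 12 neuronal markers had a median of -0.09 with 0 passing (0 higher and 1 lower unadjusted), at 11110 to 12310 CPM in Void and 10140 to 12140 CPM in DHT mice, so that neuronal mRNA was plentiful in both groups. Oligodendrocyte, endothelial and erythroid markers had 0 passing of 8, 8 and 1 tested, with 3, 0 and 0 at an unadjusted p under 0.05. No marker on these lists was at 0 in every library. With the mean level of the choroid plexus markers as a covariate, the median of the ribosomal protein genes was 0.16 and 75 of 79 were positive, while Rps27l had a log2 fold change of 0.20 (adjusted p = 0.882), and 0 of all genes tested passed in that fit. The part of the microglial markers in the ribosomal protein result was not tested.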

How the data were processed

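Hippocampal RNA of 10 mice was made into mRNA libraries (KAPA HyperPrep), cleaned with HTStream and aligned with STAR 2.7.10b by the authors, who deposited raw counts per gene. The study's methods name mm10 and the submitters' processing notes mm39; annotation release, strand setting and the handling of reads with several places are not given in the sources used here. Library totals were 27188854 to 47113661 counts. GENCODE M21 gave symbols to 91.3% of identifiers, and gene types and transcript lengths. Of the identifiers shared with it, 99.9% carried a later version number in the counts. Symbols, gene types and lengths are thus from an earlier annotation than the counts. edgeR 4.0.16 (TMM, filterByExpr, quasi-likelihood test, Benjamini-Hochberg over 17622 genes) in R 4.3.3 compared 5 DHT with 5 Void mice; DESeq2 1.42.0, limma-voom 3.58.1, other normalizations, filters, covariates and leaving out each mouse were alternatives. CPM are TMM-normalized. The genes and lists were chosen with earlier results of these data known. Named were the 6 genes with the lowest p, the 4 with the highest and the 4 with the lowest fold change, the 3 highest and the 3 lowest per length, a fixed group of known genes, and paralogs; Rpl4, Rpl5, Rpl11, Rpl13a, Rpl29, Rps2, Rps9, Rps26, the other genes listed by how many DHT mice stood above Void, Tpt1, Eef1a1, Myc, Mdm2, Trp53, Mrpl14, Gfap, Sox9 and the pseudogenes were named after their values were seen. The spread is that between mice. The lists left out 1 gene, which is not reported here.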

Additional observations from a re-analysis of the deposited data

Results flagged for a closer look

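The 5 mice of each group were examined for a mouse that stood apart, by the gap to its neighbour as a share of the group's range against Dixon's limit of 0.71. Of 88 sets of 5 values, 3 passed, where chance would give 4.4 for sets chosen without sight of their values. The sets did not cover all ribosomal protein genes, and some genes in them, such as Rpl13a, were named after their values were seen. The comparison with chance therefore decides nothing. DHT mouse 3 was highest for Rpl3, with a share of 0.743 (287.9 CPM beside 219.4 to 237.0 CPM). The same mouse was lowest for Rpl6l, a processed pseudogene under 1 CPM, with 0.727. DHT mouse 6 was lowest for Rpl13a, with 0.849 (8.93 CPM beside 10.2 to 10.5 CPM). Genes outside the sets also had a mouse far from its group. Rps15a was at 107.9 CPM in DHT mouse 6, beside 123.7 to 129.1 CPM in the other DHT mice. Rpl19 was at 90.89 CPM in DHT mouse 5, beside 72.81 to 77.82 CPM in the other DHT mice. Rps2-ps10, described above, was outside the sets too.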

How the results depend on the processing

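The lower count was 0 in every fit, and the higher count was 1 (Rps27l) with DESeq2, limma-voom, RLE factors, TMM without these genes and both other filters. It was 0 with the choroid plexus covariate and 0 with the transcript length offset, 0 with a log2 fold change beyond 1, and 28 at an unadjusted p under 0.05 (12 with DESeq2, 23 with limma-voom). The share of all genes at that unadjusted limit was counted in the main fit only. The median was 0.0029 with the length offset, beside -0.0727 over all genes in that fit. With RLE factors 0 genes had groups that did not overlap. Leaving out each mouse gave 0 to 2 higher, 0 to 0 lower, medians of 0.07 to 0.16 and a difference in share of 0.0539 to 0.0816 percentage points. It also gave 1 to 13 genes with groups apart: 13 without DHT mouse 3 and 4 without Void mouse 5, Void mouse 9 or DHT mouse 6. The share of all genes with groups apart was not counted in these fits or with RLE factors, so those counts have no background. Groups of fewer mice come apart more easily in any gene. Rps27l was 0.20 with the covariate and 0.34 (adjusted p = 0.0791) with the offset, and Cdkn1a 0.71 (adjusted p = 0.564) with the covariate.

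Other named genes changed sign without passing. With the covariate the log2 fold changes were Rps4l 0.45, Rpl3 0.30, Rps10 -0.20, Rpl22l1 0.071, Rpl36al -0.17, Rpl7l1 -0.041, Rps3a1 0.070 and Rpl3-ps1 -0.54. With the offset they were Rpl21 -0.11, Rpl9 -0.094, Rps10 -0.10, Rpsa -0.035, Rps27a -0.046, Rpl10 -0.035, Rpl39 -0.033, Rps4x -0.015, Rpl7 -0.0056, Rpl7l1 -0.064, Rpl29 -0.053, Rps2 -0.057, Rpl13a -0.0076 and Rpl4 -0.056. Leaving out single mice took Rps4l from -0.22 to 0.076, Rpl3 from -0.16 to 0.054, Rpl21 from -0.035 to 0.061, Rpl9 from -0.011 to 0.082, Rpl6l from -0.072 to 0.28, Rpl32l from -0.066 to 0.54, Rps10 from -0.090 to 0.18, Rpl22l1 from -0.086 to 0.079, Rpl29 from -0.26 to 0.56, Rps26-ps1 from -0.39 to 0.20 and Rps2 from -0.018 to 0.16. The cause was not tested. No paired analysis was possible, because the labels name no litters and no pairs of mice. Rpl32l and Rpl6l, both under 1 CPM, had standard errors of 0.42 and 0.30, so that a difference of the median's size was not detectable in them at this depth.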
